A study of Homo sapiens with 4 samples.

Results

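The genes described here encode 6 insulin-like growth factor (IGF) binding proteins (IGFBP2 to IGFBP7), the receptors IGF1R, IGF2R and INSR, and the receptor substrate IRS1. They were chosen by symbol from the gene count table of an RNA-seq experiment, and all 10 were found among its 15575 genes. The libraries came from U251, an established human glioblastoma (GBM) cell line that is grown attached in medium with serum. They comprised 2 Ctrl libraries, from cells given control lentivirus (pGreen in the labels), and 2 PRMT3-KD libraries, from cells given lentivirus with a short hairpin RNA against PRMT3, a protein arginine methyltransferase. Both groups were therefore transduced, and the hairpin used for these libraries was not named. Whether the 2 libraries of a group came from separate cultures was not stated, so p-values measure the spread between these libraries, which may be technical. The question asked of the experiment was which transcripts differ when PRMT3 is depleted in GBM cells.

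IGF1 and IGF2 act through IGF1R, a tyrosine kinase that signals via IRS1 and other adaptors to PI3K, AKT and mTOR, and through the closely related insulin receptor INSR. IGF2R has no kinase domain, removes IGF2 from the cell surface and carries lysosomal enzymes tagged with mannose 6-phosphate. The IGF binding proteins are secreted, hold IGFs outside the cell, and are released from them by proteases, and several also bind matrix or cell surface molecules. Gliomas are known for high IGFBP2, and GBM cells in culture secrete several members of the family.

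The promoter windows of 3 members are shown because IGFBP3 and IGFBP4 were the members past the threshold, in opposite directions, and IGF2R was the member with the closest PRMT3-KD libraries. Each window runs from 250 bases before to 50 bases after the start site on the strand of the gene, as given by RefSeq for GRCh38.p14. The windows are chr7:45921223-45921522 (minus strand) for IGFBP3, chr17:40443200-40443499 (plus strand) for IGFBP4 and chr6:159968832-159969131 (plus strand) for IGF2R. Capitals mark TATATA and GCGTG (also as CACGC, its other strand) in IGFBP3, TATAAA in IGFBP4 and TCACGTGA in IGF2R.
IGFBP3: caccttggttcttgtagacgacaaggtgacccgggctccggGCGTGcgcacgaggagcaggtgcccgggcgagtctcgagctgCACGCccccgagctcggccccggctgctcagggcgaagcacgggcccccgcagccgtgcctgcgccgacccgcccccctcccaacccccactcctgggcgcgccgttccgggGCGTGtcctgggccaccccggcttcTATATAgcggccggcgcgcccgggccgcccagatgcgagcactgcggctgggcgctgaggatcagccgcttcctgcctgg
IGFBP4: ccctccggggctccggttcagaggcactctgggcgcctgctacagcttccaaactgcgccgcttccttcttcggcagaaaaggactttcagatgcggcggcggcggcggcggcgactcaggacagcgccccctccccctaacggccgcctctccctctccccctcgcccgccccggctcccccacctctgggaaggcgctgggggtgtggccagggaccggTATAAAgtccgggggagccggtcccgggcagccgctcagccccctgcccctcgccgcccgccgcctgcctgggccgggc
IGF2R: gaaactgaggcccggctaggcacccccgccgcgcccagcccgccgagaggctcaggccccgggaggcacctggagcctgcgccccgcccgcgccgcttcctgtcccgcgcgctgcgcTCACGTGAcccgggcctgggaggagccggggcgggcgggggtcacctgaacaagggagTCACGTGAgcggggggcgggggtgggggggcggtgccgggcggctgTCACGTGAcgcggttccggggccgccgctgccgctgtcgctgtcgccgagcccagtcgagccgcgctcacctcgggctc

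A TATA-like sequence was found in both binding protein windows at nearly the same place, TATATA at -30 to -25 in IGFBP3 and TATAAA at -29 to -24 in IGFBP4. TATAAA occurs on either strand in 11.5% of the 35116 promoters of the same length, and TATATA in 3.99%. GCGTG, the core of one form of the hypoxia response element, occurred 3 times in the IGFBP3 window, a number reached by 4.30% of promoters. The window of IGF1R, which did not pass the threshold, held it 4 times, and the IGFBP4 window lacked it. ACGTG, the other form, which 21.4% of promoters hold, was absent from both the IGFBP3 and the IGFBP4 window. The IGF2R window held TCACGTGA 3 times, at -133 to -126, -75 to -68 and -29 to -22. This palindrome contains CACGTG (7.26% of promoters) and on both strands ACGTG. It occurred in 0.980% of promoters, and 3 or more copies in 4 of them. Of the 10 members, 9 had a promoter entry (IGFBP7 had none), and the single IGFBP5 window held none of the 7 motifs searched on both strands, which were these 6 and GGGCGG, present in 45.0% of promoters. A match describes the letters in the window and is not a binding site shown by these data.

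Library totals ranged from 24804250 to 29756313 counts. PRMT3 itself stood at 535 and 535 counts in Ctrl against 77 and 45 in PRMT3-KD, a log2 fold change of -3.08 ± 0.31 (standard error, SE, adjusted p = 0.0177, edgeR). The 2 Ctrl libraries were far closer to each other than the PRMT3-KD libraries were: a chi-square of their gene counts, divided by its degrees of freedom, was 1.41 for Ctrl and 66 for PRMT3-KD, and pure sampling of reads would give 1. The U251 label was checked against glial and glioma markers. VIM, CD44, NES and SOX2 were well expressed, with VIM at 4453 to 5399 CPM (read counts scaled to a common library size). GFAP was low, at 13.1 and 14.3 CPM in Ctrl and 1.26 and 5.39 CPM in PRMT3-KD (adjusted p = 0.0958, edgeR). S100B lay between 1.93 and 2.82 CPM, AQP4 had 1 count in all, and OLIG2 was not analysed here. SOX9 was lower in PRMT3-KD (1 of 8 tested markers past the threshold). Summed neuronal markers reached at most 20.2 CPM and immune markers 30.0 CPM, and the immune cell marker PTPRC had 2 to 7 counts. The threshold combined an adjusted p below 0.05 with more than 1.5-fold, and 1441 of 13172 tested genes met it (10.9%, of which 655 or 4.97% were higher in PRMT3-KD and 786 or 5.97% lower). An exact permutation test of 2 against 2 libraries cannot go below p = 0.333, so p-values come from the edgeR model across all genes.

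Of the 10 members, all of which had enough counts to be tested, IGFBP4 rose and IGFBP3 fell, and 8 did not pass the threshold. The 2 calls stand beside a background of 10.9% of all tested genes, and the median log2 fold change of the members was -0.03 against 0.01 over all genes. The groups did not overlap for IGFBP4, IGFBP5, IGFBP7 and IGF2R, which were above Ctrl, nor for IGFBP3 and INSR, which were below. These 6 of 10 stand beside 67.1% of all tested genes whose groups did not overlap (33.3% above and 33.8% below), so that lack of overlap alone does not set the members apart. For IGFBP2, IGFBP6, IGF1R and IRS1 the PRMT3-KD libraries lay on both sides of a Ctrl library. In bulk RNA, fewer cells that express a gene and less of its RNA per cell cannot be told apart.

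**Figure D1:**
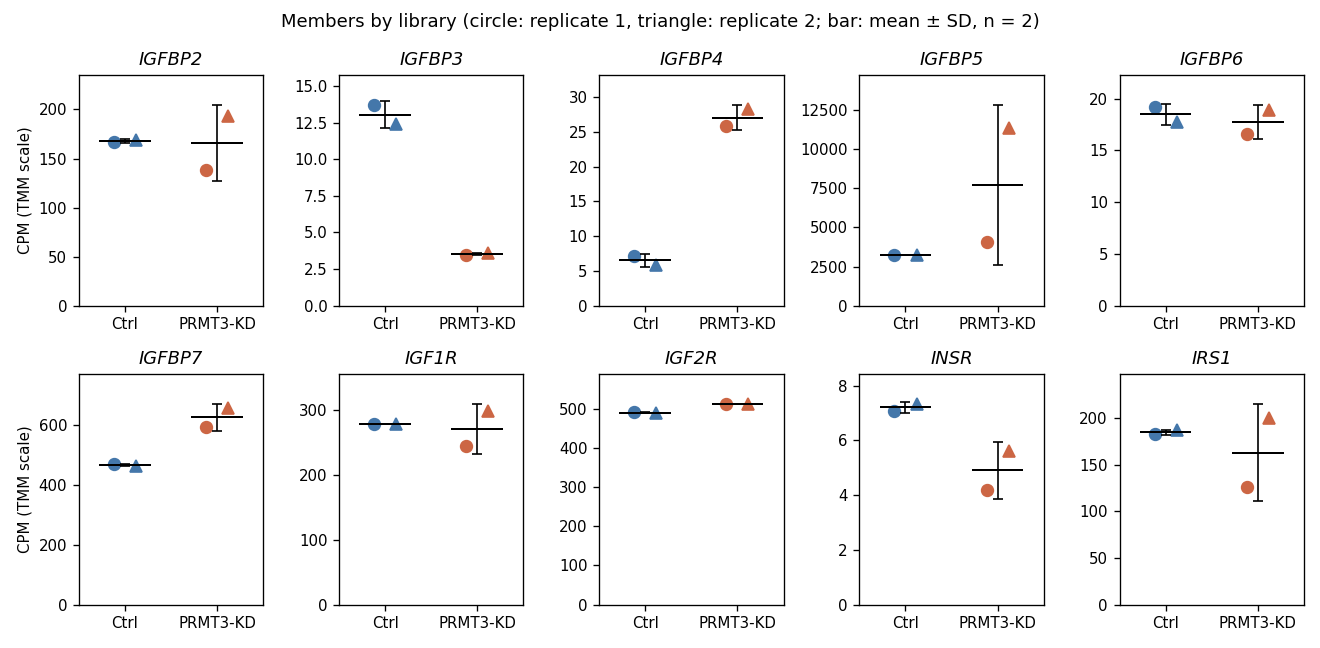
Normalised read counts (CPM after TMM normalisation, linear axes from 0, 1 panel per gene) of the 10 members in each of the 2 Ctrl (blue) and 2 PRMT3-KD (orange) libraries, with bars for the mean ± SD (n = 2). IGFBP3 sits lower and IGFBP4 higher in both PRMT3-KD libraries, and the PRMT3-KD libraries of IGFBP5 are 2.78-fold apart.

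IGFBP3, the main carrier of IGFs in the circulation, lies at chr7:45951844-45961473 on the minus strand of GRCh37 and has 5 exons in its canonical transcript. Its counts were 380 and 341 in Ctrl and 88 and 102 in PRMT3-KD, or 13.7 and 12.4 CPM against 3.46 and 3.59 CPM. Both PRMT3-KD libraries were far below both Ctrl libraries and close to each other. The mean fell from 13.1 ± 0.93 to 3.53 ± 0.09 CPM (SD, n = 2), 3.70-fold, with a log2 fold change of -1.89 ± 0.14 (SE, 95% interval -2.27 to -1.50, adjusted p = 0.0142, edgeR). Each PRMT3-KD library showed it alone, at 3.77-fold and 3.64-fold below the Ctrl mean.

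IGFBP4, which restrains IGF action until it is cleaved, lies at chr17:38599702-38613977 on the plus strand, with 4 exons in a single annotated transcript. Its counts were 199 and 162 in Ctrl and 655 and 805 in PRMT3-KD, or 7.18 and 5.89 CPM against 25.8 and 28.3 CPM. Both PRMT3-KD libraries stood well above both Ctrl libraries. The mean rose from 6.54 ± 0.91 to 27.1 ± 1.81 CPM (SD, n = 2), 4.14-fold, with a log2 fold change of 2.05 ± 0.15 (SE, 95% interval 1.66 to 2.44, adjusted p = 0.0142, edgeR). The size of both changes held without any 1 library, from -1.96 to -1.81 for IGFBP3 and from 1.91 to 2.20 for IGFBP4. The calls did not: without Ctrl library 1 the adjusted p was 0.118 for IGFBP3 and 0.0764 for IGFBP4, and without Ctrl library 2 it was 0.0868 and 0.0641. In both of these edgeR fits 0 of all tested genes passed, with 1842 and 1868 at an unadjusted p under 0.05.

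IGFBP5, a matrix-binding member and the most abundant of the family here, lies at chr2:217536828-217560272 on the minus strand. It had 88863 and 88139 counts in Ctrl against 103417 and 321069 in PRMT3-KD, which is 3207 and 3204 CPM against 4071 and 11302 CPM. Both PRMT3-KD libraries were above Ctrl, but by very different amounts, 1.27-fold in the first and 3.53-fold in the second. The ratio of 2.78 between the 2 PRMT3-KD libraries was larger than for 99.1% of tested genes. The log2 fold change of 1.26 ± 0.50 (SE, 95% interval -0.06 to 2.58) did not pass (adjusted p = 0.146, edgeR). With limma-voom and group-wise weights it passed (log2 fold change 1.08, adjusted p = 0.0300). Without PRMT3-KD library 1 it was 1.82 and past the threshold, and without PRMT3-KD library 2 it was 0.34 and under 1.5-fold. In these fits the spread comes from the Ctrl pair alone, and the lone PRMT3-KD library is assumed to vary like it. IGFBP5 took 0.324% of all counts in either Ctrl library, 0.417% in PRMT3-KD library 1 and 1.08% in PRMT3-KD library 2, where it ranked 2nd among all genes (13th in Ctrl and 9th in the other PRMT3-KD library). These shares and ranks hold among the 15575 genes counted, which include 0 genes of the mitochondrial genome. The endothelial cadherin CDH5 was also higher in PRMT3-KD library 2 alone, at 25.4 CPM against 5.05 to 5.31 in the other 3, while VWF, the only other endothelial marker measured of 5 listed, was at 1.18 to 2.46 CPM throughout. The markers summed to 27.9 CPM in PRMT3-KD library 2 and to 6.26 to 7.40 CPM in those 3 libraries. Their part in the IGFBP5 value was not tested.

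IGFBP7, a relative with low affinity for IGFs that is found in vessel walls and matrix, lies at chr4:57896939-57976551 on the minus strand. It had 12992 and 12731 counts in Ctrl and 15056 and 18668 in PRMT3-KD, or 469 and 463 CPM against 593 and 657 CPM. Both PRMT3-KD libraries were higher, by 1.27-fold and 1.41-fold. The log2 fold change was 0.42 ± 0.08 (SE, 95% interval 0.20 to 0.64, adjusted p = 0.0395, edgeR), a 1.34-fold difference that stayed under the 1.5-fold part of the threshold. Blocking on replicate number gave an adjusted p of 0.0723. Of its exon bases, 13.5% are shared with POLR2B on the opposite strand, whose counts ranged from 10349 to 13068, and whether counting used strand was not stated. How much POLR2B contributed to the IGFBP7 counts was not tested.

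IGFBP2, the member known for high levels in glioma, lies at chr2:217497551-217529159, tail to tail with IGFBP5 with a gap of 7668 bases and 0 protein-coding genes between them. Its counts were 4611 and 4653 in Ctrl and 3510 and 5489 in PRMT3-KD, or 166 and 169 CPM against 138 and 193 CPM. One PRMT3-KD library was below Ctrl and the other above, and the log2 fold change was -0.02 ± 0.17 (SE, 95% interval -0.48 to 0.45, adjusted p = 0.954, edgeR). The neighbour IGFBP5 was above Ctrl in both libraries. IGFBP6, which prefers IGF2 over IGF1 (chr12:53491220-53496129, plus strand), had 19.2 and 17.8 CPM in Ctrl and 16.6 and 18.9 CPM in PRMT3-KD, with a log2 fold change of -0.06 (95% interval -0.38 to 0.26, adjusted p = 0.748, edgeR).

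**Figure D2:**
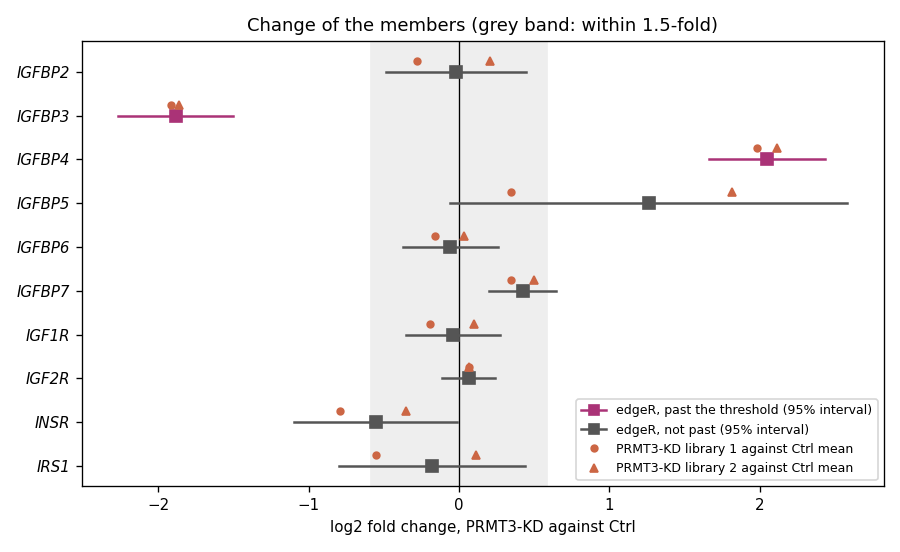
Log2 fold change of PRMT3-KD over Ctrl for the 10 members (edgeR, squares with 95% intervals, purple where past the threshold), with each PRMT3-KD library against the Ctrl mean as orange marks and a grey band within 1.5-fold. IGFBP3 at -1.89 and IGFBP4 at 2.05 lie outside the band with their whole intervals, and the interval of IGFBP5 spans -0.06 to 2.58.

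For the family as a whole, levels were compared between genes as RPKM, the normalised count per kilobase of all annotated exons. The 6 binding proteins summed to 795 and 790 RPKM in Ctrl and 991 and 2157 RPKM in PRMT3-KD. Without IGFBP5 the sums were 299 and 294 against 361 and 409 RPKM. IGFBP5 made up 62.4% and 62.8% of the sum in Ctrl and 63.6% in PRMT3-KD library 1, but 81.0% in PRMT3-KD library 2. IGFBP7 was the other large component, at 30.6% and 30.4% in Ctrl and 31.0% and 15.8% in PRMT3-KD. IGFBP3 and IGFBP4, the members past the threshold, were minor components throughout, at most 0.378% and 1.18% of the sum.

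**Figure D3:**
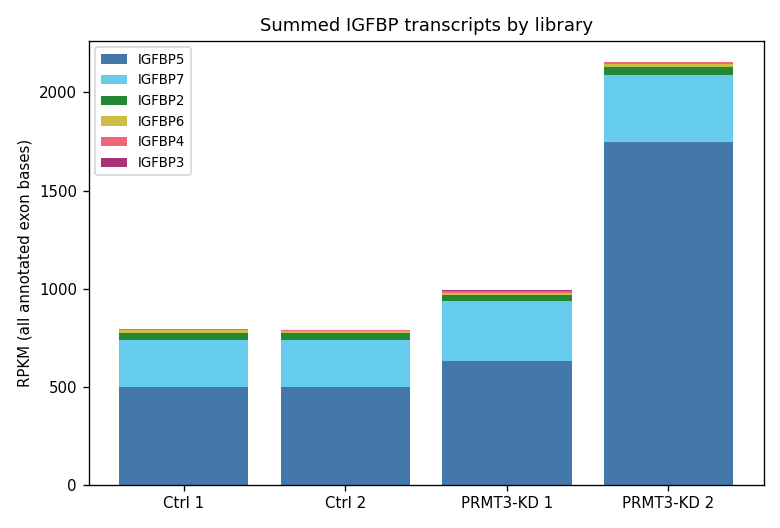
Summed level of the 6 IGF binding proteins (RPKM, stacked bars from 0) in each of the 4 libraries, with 1 colour per gene. The bar of PRMT3-KD library 2 reaches 2157 RPKM against 790 to 991 RPKM in the other 3, and most of every bar is IGFBP5 and IGFBP7.

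In order of RPKM in Ctrl, IGFBP5 (496) was followed by IGFBP7 (241), IGFBP2 (35.4), IGF2R (21.7), IGF1R (20.0), IRS1 (18.4), IGFBP6 (13.7), IGFBP4 (2.96), IGFBP3 (2.86) and INSR (0.666). Of these neighbours, only IGFBP4 and IGFBP3 overlapped between the 2 Ctrl libraries. IGFBP5 was above 99.8% of tested genes in Ctrl and INSR above 15.9%. In PRMT3-KD, IGFBP4 (12.3 RPKM) and IGFBP3 (0.772 RPKM) no longer overlapped. IGFBP6 and IGFBP4, IRS1 and IGFBP6, and IGF1R and IRS1 overlapped in that group, where the spread was wider. With the length of the canonical transcript in place of all exon bases, a choice made after seeing the data, IGFBP3 stood above IGFBP4 (2.96) in Ctrl, IGFBP6 (19.5) above IRS1 (18.9), and IGFBP2 was at 119.

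Among the receptors, IGF1R (chr15:99191768-99507759, plus strand, 21 exons) had 7730 and 7666 counts in Ctrl and 6196 and 8481 in PRMT3-KD, or 279 and 279 CPM against 244 and 298 CPM. The PRMT3-KD libraries lay on either side of Ctrl, with a log2 fold change of -0.04 ± 0.12 (SE, 95% interval -0.35 to 0.27, adjusted p = 0.833, edgeR). IGF2R (chr6:160390114-160534539, plus strand, 48 exons) was the steadiest member, at 491 and 489 CPM in Ctrl and 513 and 512 CPM in PRMT3-KD. Both PRMT3-KD libraries were higher by about the same small amount, 1.05-fold, and the log2 fold change of 0.06 ± 0.07 (SE, 95% interval -0.11 to 0.24, adjusted p = 0.522, edgeR) bounds the change under 1.5-fold.

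INSR (chr19:7112266-7294425, minus strand, 22 exons) was the least abundant receptor, with 196 and 202 counts in Ctrl and 106 and 160 in PRMT3-KD, or 7.07 and 7.34 CPM against 4.17 and 5.63 CPM. Both PRMT3-KD libraries were below Ctrl, by 1.73-fold and 1.28-fold. The log2 fold change of -0.55 ± 0.20 (SE, 95% interval -1.10 to -0.01, adjusted p = 0.127, edgeR) did not pass. Without PRMT3-KD library 2 it was -0.79 and passed (adjusted p = 0.000322), a call that rests on the spread of the Ctrl pair in the same way. IRS1, the docking protein for both receptor kinases (chr2:227596028-227664536, minus strand, 2 exons), had 183 and 187 CPM in Ctrl and 126 and 200 CPM in PRMT3-KD. One PRMT3-KD library was below Ctrl and the other above, and the log2 fold change was -0.18 ± 0.23 (SE, 95% interval -0.80 to 0.44, adjusted p = 0.613, edgeR).

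The other genes of the pathway were taken from lists of 76 genes, of which 62 could be tested, and TSC1 rose and 5 genes fell, with a median log2 fold change of -0.02. These are 1.61% higher and 8.06% lower, beside 4.97% and 5.97% of all tested genes. With DESeq2, 9 passed in place of 6, and with limma-voom 7. Over all genes these tools also called more, 1834 with DESeq2 and 1690 with limma-voom in place of 1441. The ligands had few counts. IGF1 had 8 and 7 counts in Ctrl and 18 and 12 in PRMT3-KD (log2 fold change 1.04, adjusted p = 0.174, edgeR), INS had 1 count in all, and IGF2 was not analysed here. Of the 7 tested genes with an IGFBP-like domain, CRIM1, a membrane protein that binds bone morphogenetic proteins, fell from 504 and 501 CPM to 303 and 273 CPM (log2 fold change -0.80 ± 0.08, SE, adjusted p = 0.0179, edgeR). It was the 1 call in this list with edgeR and with limma-voom, and DESeq2 made 3. With edgeR this is 14.3% lower, beside 5.97% of all tested genes. The list's median log2 fold change was 0.41, so CRIM1 does not stand for the list. An unadjusted p under 0.05 (edgeR) was reached by 5 of the 7, and by 37.6% of all tested genes. IGFBP1, IGFALS, IGFBPL1, WISP3 and HTRA3 were not analysed here.

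Of 7 proteases and stanniocalcins, 0 passed the threshold with edgeR (median log2 fold change 0.17, 3 at an unadjusted p under 0.05, which 37.6% of all tested genes reached), against 1 with DESeq2 and 1 with limma-voom. These include PAPPA, which cleaves IGFBP4, at 26.0 and 28.5 CPM in Ctrl and 27.2 and 20.3 CPM in PRMT3-KD (log2 fold change -0.20, adjusted p = 0.455, edgeR), and its inhibitor STC2, at 3.90 and 3.38 CPM against 12.3 and 5.32 CPM (log2 fold change 1.27, adjusted p = 0.117), both named after their values were seen. STC2 was the 1 call of DESeq2 and of limma-voom. The other stanniocalcin, STC1, also named after its values were seen, was more abundant and its groups overlapped. It was at 45.1 and 41.0 CPM in Ctrl and 103 and 40.5 CPM in PRMT3-KD (log2 fold change 0.74, adjusted p = 0.307, edgeR). The PAPPA groups overlapped, unlike those of IGFBP4. Of 12 receptor adaptors and attenuators, 0 passed with edgeR, DESeq2 or limma-voom (median log2 fold change 0.09, 4 at an unadjusted p under 0.05 with edgeR). Of the 2 tested IGF2 mRNA-binding proteins, 0 passed with edgeR (1 at an unadjusted p under 0.05) or limma-voom and 1 with DESeq2.

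Of 23 genes of the PI3K, AKT, mTOR and FOXO branch, 1 rose and 3 fell (median log2 fold change -0.08). These are 4.35% higher and 13.0% lower, beside 4.97% and 5.97% of all tested genes. An unadjusted p under 0.05 (edgeR) was reached by 11 of the 23, and by 37.6% of all tested genes. MAPKAP1, a subunit of mTOR complex 2, was at 156 and 159 CPM in Ctrl and 46.4 and 39.2 CPM in PRMT3-KD (log2 fold change -1.88 ± 0.11, SE, adjusted p = 0.0140, edgeR), and MLST8, a subunit of both mTOR complexes, fell as well (-0.69 ± 0.08, adjusted p = 0.0193). TSC1, which restrains mTOR complex 1, rose by 0.61 ± 0.09 (adjusted p = 0.0244). GSK3A, a kinase inhibited by AKT, fell by 0.59 on the log2 scale (adjusted p = 0.0250) and dropped just under 1.5-fold with DESeq2 and with 2 other scalings. Of 10 genes for mannose 6-phosphate sorting, in which IGF2R takes part, GNPTAB, which makes the tag, fell from 86.7 and 84.5 CPM to 31.5 and 31.6 CPM (log2 fold change -1.44 ± 0.07, SE, adjusted p = 0.0140, edgeR). Its groups were thus wide apart, while those of IGF2R differed by 1.05-fold. GNPTAB was the 1 call in this list, 10% of it, beside 10.9% of all tested genes called in either direction.

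**Figure D4:**
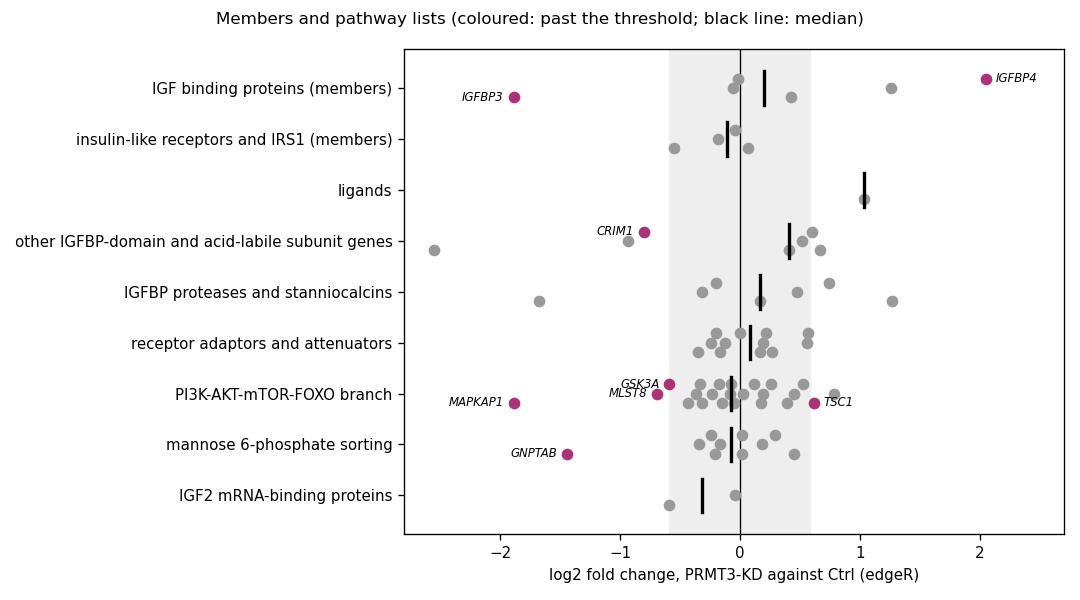
Log2 fold change of PRMT3-KD over Ctrl for each tested member and pathway gene, 1 row per list and 1 point per gene, with genes past the threshold in purple and named, a black line at each list's median and a grey band within 1.5-fold. Most points lie in the band, and of the named pathway genes MAPKAP1 (-1.88) and GNPTAB (-1.44) lie farthest below it.

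Over the 4 libraries, the genes whose pattern was most like that of IGFBP3 were CHRAC1, CKAP4 and DPYD, with root-mean-square distances of 0.05, 0.09 and 0.10 on the log2 scale. Their log2 fold changes were -1.79, -1.85 and -1.64. The genes most like IGFBP4 were OVCH2, CXADR and LIPH, at distances of 0.08, 0.08 and 0.11 and with log2 fold changes of 2.34, 1.98 and 2.10. Distances were taken on log2(CPM + 0.5) relative to the Ctrl mean. The added 0.5 shrinks the change of genes with few counts, such as OVCH2 at 1.08 and 0.87 CPM in Ctrl. With 4 libraries in 2 groups, these distances mostly describe the size of the difference between the groups.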

How the data were processed

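RNA-seq was made from total RNA of U251 cells (2 Ctrl and 2 PRMT3-KD libraries, grouped by their labels). The authors aligned reads to hg19 with TopHat and deposited unnormalized gene counts from Cufflinks; CASAVA and DESeq2 are also named in the submitters' processing notes. Versions, annotation, strand and any gene filter are not given in the sources used here. Of 15576 entries, 1 duplicate was removed, and 99.9% of identifiers matched GENCODE 44 lifted to GRCh37.

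The counts were analysed as deposited in R 4.3.3 with edgeR 4.0.16: filterByExpr (minimum count 10, minimum total 15), TMM factors, glmQLFit and glmQLFTest, and Benjamini-Hochberg adjustment over 13172 genes. Standard errors came from the log2 fold change and F, and 95% intervals from the t distribution. RPKM used exon lengths from GENCODE. Depth (24804250 to 29756313 counts) limits genes with few counts. Tested on simulated data with the unequal spread of these groups, the edgeR fit missed many changed genes, more of them at the smaller of the simulated sizes. A gene that did not pass may therefore still differ. The simulation changed far fewer genes than passed here and gave all genes of a group the same spread. The share missed in these data may therefore be another.

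The members and gene lists were chosen with earlier results of these data known. The named genes are all members, list genes past the threshold, PRMT3, and the 3 genes nearest in pattern to each member past the threshold. Outside this rule, IGF1, PAPPA, STC1, STC2, POLR2B and the cell type markers given with values were named after their values were seen. Alternatives were DESeq2 1.42.0, limma-voom (limma 3.58.1) with group weights, other scalings and filters, adjusted p alone, 2-fold, the replicate number as a block, and leaving out each library. The canonical transcript length was added after seeing the data. Protein and metabolite data were not analysed here.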

Additional observations from a re-analysis of the deposited data

How the results depend on the processing

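Without leaving out a library and with the threshold unchanged, 79 of 80 alternative values of the members kept their direction and their side of the threshold. The exception was IGFBP5 under limma-voom with group weights, with a log2 fold change of 1.08 (adjusted p = 0.0300). The calls of IGFBP3 (-1.92 to -1.88) and IGFBP4 (2.02 to 2.05) held in all of these, with adjusted p of at most 0.0178. In place of 1441 genes past the threshold, adjusted p alone gave 2278 and 2-fold gave 512. In place of 6 pathway list genes they gave 12 and 2, and in place of 2 members 3 and 2. The member added by adjusted p alone was IGFBP7 (adjusted p = 0.0395, edgeR), at 1.34-fold. The threshold itself sets these counts.

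Leaving out 1 library gave 0 to 3066 genes, 0 to 3 members and 0 to 18 pathway list genes, with the 0 in each case without either Ctrl library, which leaves the spread to be estimated from the PRMT3-KD pair alone. The third member was IGFBP5 without PRMT3-KD library 1 and INSR without PRMT3-KD library 2, both in fits that take the spread from the Ctrl pair alone. Log2 fold changes ranged from -1.96 to -1.81 for IGFBP3, 1.91 to 2.20 for IGFBP4, 0.34 to 1.82 for IGFBP5 and -0.79 to -0.35 for INSR. The sign turned without PRMT3-KD library 1 for IGFBP2 (-0.28 to 0.21), IGFBP6 (-0.16 to 0.034), IGF1R (-0.20 to 0.10) and IRS1 (-0.56 to 0.12), none of them past the threshold.

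With the replicate number as a block, 1464 genes, 2 members and 6 pathway list genes passed. Across genes, the difference between libraries 1 and 2 in Ctrl correlated at 0.058 with that in PRMT3-KD. The Ctrl difference was close to sampling of reads (chi-square per degree of freedom 1.41). This correlation therefore cannot decide whether same-numbered libraries were paired. The block changed no call of a member.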
